A study of Mus musculus with 16 samples.

Results

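Replication-dependent histone genes were followed across 16 mouse libraries. They were taken as the genes whose symbol begins with Hist1h, Hist2h, Hist3h or Hist4h, with symbols that carry -ps left out, which gave 69 of the 53342 genes in the deposited tables. By type these are 6 genes for the linker histone H1, 20 for H2A, 18 for H2B, 12 for H3 and 13 for H4. Among those of H2A, Hist1h2aj and Hist1h2al are annotated as pseudogenes and were kept, since their symbols do not carry -ps. RNA was sequenced from bone marrow LSK cells, a sorted population rich in haematopoietic stem and progenitor cells that lacks B220, CD3, CD4, CD5 and CD8 and carries Sca1 and c-Kit. The mutant mice are Gata2 +9.5(Ets)-/-, with a C-to-T change in both copies of the Ets motif of the intronic +9.5 enhancer of Gata2, a haematopoietic transcription factor gene. The change is in the germ line and is therefore carried by every cell of the animal. The 4 groups are mutant after 5-fluorouracil (5-FU, 250 mg/kg; 3 libraries), wild type after the same dose (3 libraries), mutant after PBS (5 libraries) and wild type after PBS (5 libraries). Marrow of all 4 groups was taken 10 days after injection from mice of 8 to 14 weeks on a C57BL/6J background, and 3000 to 10000 cells were sorted per replicate. The labels do not say that replicates of a group are separate mice, so p-values measure only the spread between these libraries.

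These genes supply the histones that wrap newly copied DNA: H2A, H2B, H3 and H4 form the core of the nucleosome and H1 binds the DNA between cores. Their transcripts build up in S phase, and most of them end in a conserved stem-loop, bound by the protein Slbp and cut by the U7 small nuclear ribonucleoprotein, in place of a poly(A) tail. Some of the genes also give longer, polyadenylated transcripts that run on past the stem-loop. 5-FU blocks thymidylate synthase and depletes dividing marrow cells, after which stem and progenitor cells divide to rebuild the marrow.

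The stem-loop is shown for the genes on which the results turn, because the length of transcript annotated after it separates those genes. It was read 5′ to 3′ from the transcripts of each gene in GENCODE M21 (GRCm38), with up to 2 mismatches to the 16-base stem-loop allowed. Where a gene has several transcripts, the one with the fewest mismatches was used. Capitals mark the stem-loop.
Hist1h1c: aaaaGGCTCTTTTCAGAGCCacca
Hist1h2ac: caaaGGCTCTTTTCAGAGCCccca
Hist3h2a: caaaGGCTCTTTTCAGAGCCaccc
Hist2h2aa2: aaaaGGCTCTTTTCAGAGCCaccc
Hist1h2ap: aaaaGGCTCTTTTCAGAGCCatc
Hist1h2bg: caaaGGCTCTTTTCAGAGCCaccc
Hist1h3e: aaacGGCTCTTTTAAGAGCCacct
Hist1h4d: caaaGGCCCTTTTCAGGGCCacta
Hist4h4: caaaGGCCCTTTTCAGGGCCcaca
The H1, H2A and H2B genes shown have the same 16 letters, Hist1h3e carries 1 mismatch to them, and the H4 genes have a different stem with 2. A stem-loop was found in 41 of the 69 genes. In 22 of these the annotated transcript ends within 100 bases of it, as in Hist1h2ap, which ends 3 bases after it. In the other 19 the model runs on, by 840 bases in Hist1h1c, 1643 in Hist3h2a, 2010 in Hist1h2ac and 2445 in Hist4h4. No stem-loop was found in the annotated transcripts of 28 genes.

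Most of the genes lie close together, and many share sequence. On chromosome 13 (GRCm38), 24 of them lie in a first cluster at 21715763 to 22043676 and 31 in a second at 23531050 to 23934851, with 1 more elsewhere on that chromosome. Chromosome 3 holds 10, chromosome 11 holds 2 and chromosome 6 holds 1. Their promoters carry the elements known for this family. In the RefSeq windows of GRCm38.p6, from 250 bases before to 50 after each gene's start, 62 of the genes matched and gave 63 windows. TATAA, searched on both strands, was in 79.4% of them, against 24.9% of the 32851 windows of all genes. CCAAT was in 85.7%, against 37.4%, and the octamer ATTTGCAT was in 22.2%, against 1.74%. The window of Hist1h2ac (chr13:23683910-23684209, minus strand) is shown because it holds all 3 and also the start of its neighbour Hist1h2bc, which is read the other way from position 23684199. Capitals mark the motifs on either strand.
Hist1h2ac promoter: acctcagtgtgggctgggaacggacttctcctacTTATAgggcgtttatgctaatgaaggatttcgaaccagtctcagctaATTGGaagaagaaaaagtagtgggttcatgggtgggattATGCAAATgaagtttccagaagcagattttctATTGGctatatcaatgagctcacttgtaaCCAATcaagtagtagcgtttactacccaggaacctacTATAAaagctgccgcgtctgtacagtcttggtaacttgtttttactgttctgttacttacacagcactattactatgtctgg
Of this pair, Hist1h2ac fell in wild-type cells after 5-FU and Hist1h2bc did not pass the test, and the difference between the 2 genes was not tested.

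The libraries held between 19.37 and 28.88 (in units of 1e6) expected counts, of which the histone genes took between 0.0889 and 0.188%. Read shares were scaled to counts per 1e6 counts (CPM) with TMM factors, and 59 of the 69 genes had enough counts to be tested. Of the 10 others, Hist1h2aa and Hist1h2ba had no count in any library, and none of the other 8 had more than 25 counts in a library. The LSK label was checked on 12 genes, none of which was at 0 in any group, and their summed level ran from 1566 to 1893 CPM in mutant and from 2026 to 2438 CPM in wild-type cells after 5-FU, and from 2436 to 4551 CPM in mutant and from 2823 to 5186 CPM in wild-type cells after PBS. The libraries also differed in transcripts of other cells, although the sort removes B and T cells by surface markers. Immunoglobulin genes took 5.69 to 26.6% of the counts in mutant and 0.0392 to 0.332% in wild-type libraries after 5-FU, and 3.67 to 50.2% in mutant and 6.37 to 44.2% in wild-type libraries after PBS. The PBS libraries numbered 3 of both genotypes stood apart: they had the highest immunoglobulin shares of their groups, the highest summed monocyte and neutrophil markers, and the highest summed histone CPM. In bulk RNA, fewer cells of a type and less RNA per cell cannot be told apart.

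H2A transcripts dominated the histone RNA of every library. Per length, in transcripts per 1e6 transcripts (TPM), the summed level of H2A genes lay between 1422 and 4925, that of H2B genes between 50.9 and 160 and that of H4 genes between 52.5 and 140. The H1 genes came to between 18.9 and 80.8 TPM and the H3 genes to between 16.3 and 51.5 TPM. Most of the H2A sum was assigned to 1 gene, Hist1h2ap. Without it the H2A genes summed to between 133 and 438 TPM, still above each other type in each library. RNA priming is not stated, so how far transcripts without a poly(A) tail were captured is not known. H2B and H4 changed places between libraries, as did H1 and H3, so neither pair has a fixed order. The most abundant member of each type by mean TPM over the 16 libraries was Hist1h2ap for H2A (2525 TPM), Hist1h2bc for H2B (35.8 TPM), Hist1h4d for H4 (32.2 TPM), Hist1h1c for H1 (22.1 TPM) and Hist1h3i for H3 (6.34 TPM).

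Hist1h2ap alone held 83.7% of the TPM of all members. Its value is uncertain as that of a single gene, since 352 of its 382 windows of 101 bases (92.1%) also occur in other genes, most of them in Hist1h2ao. The gene (chr13:21833026-21833507, minus strand) also overlaps Gm44466 on the other strand over 28.6% of its exons. Whether strand was used in counting is not given in the sources used here. Among the 69 genes, 7 overlap exons of another gene on the same strand, 23 do so on the other strand and 43 overlap none.

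Summed over the 69 genes, the group mean of histone transcripts in CPM was lowest in wild-type cells after 5-FU, but the order of the groups depended on the scale. The sums were 981, 1199 and 1523 CPM in mutant cells after 5-FU, against 734, 676 and 962 CPM in wild-type cells after 5-FU. After PBS they were 1214, 1899, 2795, 1179 and 1048 CPM in mutant cells, against 993, 1134, 3081, 951 and 811 CPM in wild-type cells. All 3 mutant libraries were above all 3 wild-type libraries after 5-FU, while the PBS groups overlapped each other throughout. Hist1h2ap alone made up 64.4 to 75.7% of the histone counts of each library. Without it the sums were 212, 180 and 234 CPM in wild-type cells after 5-FU, against 295, 383, 791, 306 and 249 CPM after PBS. Those groups did not overlap. In TPM the sums without it were 542 to 612 after 5-FU and 296 to 523 after PBS. In TPM the same sums were 1935, 3331 and 5339 in mutant cells after 5-FU, against 3667, 3695 and 4404 in wild-type cells after 5-FU. The PBS libraries came to 2157, 2740, 1993, 3815 and 4279 TPM in the mutant, against 1713, 1587, 2396, 2098 and 3127 TPM in wild type. On this scale wild-type cells after 5-FU lay above every wild-type PBS library. TPM divides a fixed total among all transcripts, and immunoglobulin genes took 14.7 to 49.2% of it in mutant and 0.12 to 0.92% in wild-type libraries after 5-FU, and 9.56 to 69% in mutant and 16.2 to 64.1% in wild-type libraries after PBS. With these genes left out of that total, a calculation added after seeing the data, the sums averaged 5097 ± 1230 in mutant (SD, n = 3) and 3946 ± 432 in wild-type cells after 5-FU (SD, n = 3), against 5493 ± 896 in mutant and 4431 ± 1255 in wild-type cells after PBS (SD, n = 5 each).

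**Figure D1:**
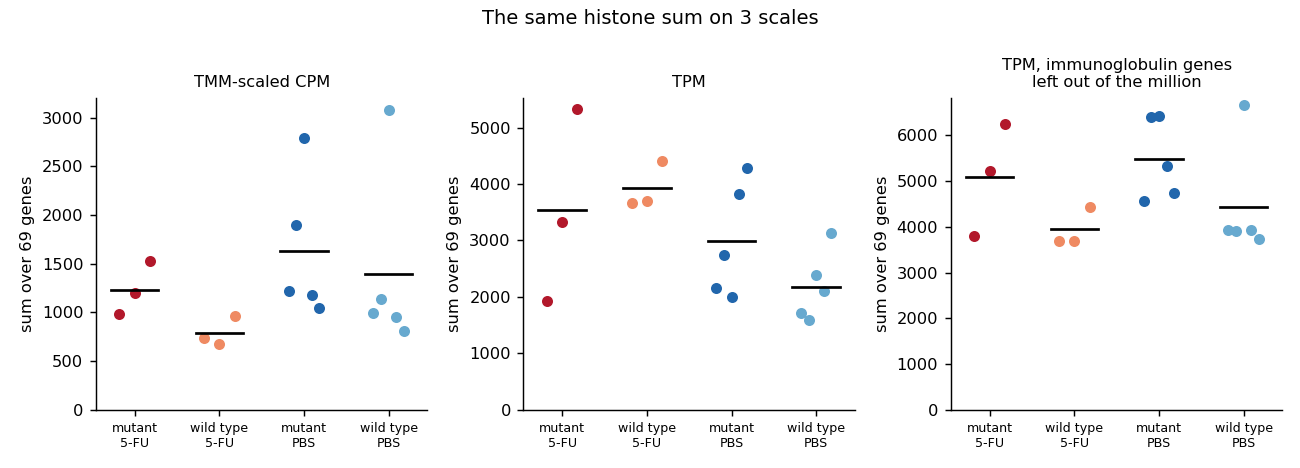
Summed level of the 69 histone genes in each library (points) with the group mean (line), as TMM-scaled CPM, as TPM, and as TPM with immunoglobulin genes left out. The wild-type 5-FU group has the lowest mean in CPM (libraries from 676 to 962, which overlap those of wild type after PBS), is above all wild-type PBS libraries in TPM (3667 to 4404), and overlaps the lower wild-type PBS libraries on the third scale. Hist1h2ap holds 64.4 to 75.7% of the histone counts of each library.

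By type, the CPM sums put wild-type 5-FU cells lowest for H1 and H3. The H1 genes summed to 62.2, 50 and 56.9 CPM in mutant cells after 5-FU, against 37.9, 36.1 and 38.0 CPM in wild-type cells after 5-FU. Every PBS library was higher than these wild-type 5-FU values, with 59.2 to 90.9 CPM in the mutant and 56.7 to 96.2 CPM in wild type. The H3 genes summed to 15.1, 12.4 and 18.9 CPM in mutant cells after 5-FU, against 6.77, 6.07 and 8.7 CPM in wild-type cells after 5-FU. For H2A, H2B and H4, the wild-type 5-FU range reached into that of wild-type PBS libraries. The H2B sums, for example, were 53.9, 45.4 and 55.9 CPM in wild-type cells after 5-FU, against 56.9, 61.2, 124, 56.5 and 48.6 CPM after PBS. For H2A the overlap came from Hist1h2ap. The other H2A genes summed to 82.7, 65.1 and 92.9 CPM in wild-type cells after 5-FU, against 111, 169, 370, 139 and 101 CPM after PBS. In TPM those H2A sums were 255 to 302 after 5-FU and 133 to 253 after PBS. In TPM the H1 sums were 58.3, 63.2 and 57.7 in wild-type cells after 5-FU and 37.7, 32.1, 23.3, 42 and 67.8 after PBS, and those of H3 were 27, 25.8 and 33 after 5-FU and 16.3, 17.3, 22, 18.6 and 26.8 after PBS. The low position of both types in CPM is thus not kept in TPM.

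**Figure D2:**
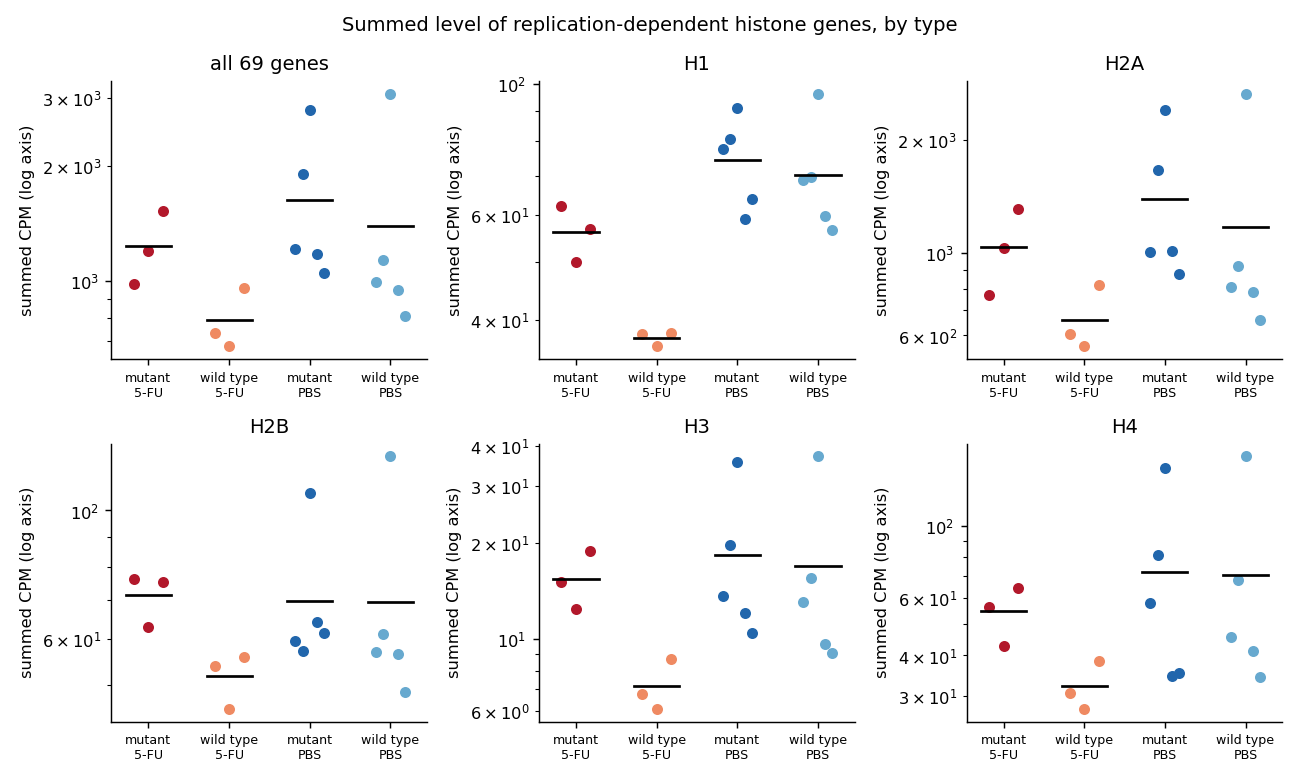
Summed CPM (log axis) of all 69 histone genes and of each type in every library, with the group mean as a line. The wild-type 5-FU libraries lie below every other library for H1 (36.1 to 38.0 CPM) and H3 (6.07 to 8.7 CPM), an order that TPM gives for neither type.

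In wild-type LSK cells 10 days after 5-FU, 9 of the 59 tested histone genes were lower than after PBS and none was higher. They are Hist1h1c (H1), Hist3h2a, Hist1h2ac and Hist2h2aa2 (H2A), Hist1h2bg (H2B), Hist1h3e and Hist1h3f (H3), and Hist4h4 and Hist2h4 (H4). These 9 of 59 stand beside 9.31% of all 16482 genes tested that were called lower (5.55% were called higher). Of the 6860 other genes of like effective length, 12.6% were called lower, and the count is close to that share. The match is loose, since those genes run from 299 to 1873 bases with a median of 1187, against 434 for the tested histone genes. Of the most abundant gene of each type, Hist1h1c (H1) passed the test, and Hist1h2ap (H2A), Hist1h2bc (H2B), Hist1h3i (H3) and Hist1h4d (H4) did not. The direction belongs to the CPM scale: limma-trend on log2(TPM + 1) called 1 histone gene lower, Hist2h2aa2, and 11 higher. Of all 16482 genes tested it called 574 lower and 7041 higher, and the median of all genes on that scale was itself shifted by 1.01.

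Hist1h1c (chr13:23738808-23740367, plus strand), which encodes a linker histone also made in non-dividing cells, gave the smallest p. It had 14, 12 and 13 CPM in wild-type cells after 5-FU, against 39.5, 33.5, 42.2, 37.0 and 30.2 CPM after PBS. The groups were far apart and each was tight, at 13 ± 1 CPM (SD, n = 3) after 5-FU and 36.5 ± 4.75 CPM (SD, n = 5) after PBS. The log2 fold change was -1.49 ± 0.24 (SE; adjusted p = 0.0015, edgeR quasi-likelihood test with Benjamini-Hochberg adjustment). In TPM, where Hist2h2aa2 alone of the 9 genes kept its groups apart, the values of Hist1h1c were 21.5, 20 and 17.7 after 5-FU and 21.0, 14.6, 9.58, 25.4 and 36.7 after PBS, and there the groups overlap. Hist1h1c overlaps no other gene, and 5.0% of its windows occur elsewhere.

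Hist3h2a (chr11:58954685-58956830, plus strand) is an H2A gene outside the large clusters. Its level was 13.7, 10.9 and 17.8 CPM in wild-type cells after 5-FU, against 29.6, 31.7, 46.4, 34.8 and 29.1 CPM after PBS, with no overlap. It fell by 1.28 ± 0.26 on the log2 scale (SE; adjusted p = 0.00634, edgeR). A neighbour, Trim17, shares 33.0% of its exon bases on the same strand, so part of its reads could belong to that gene. Hist1h2ac (chr13:23681467-23683948, minus strand) encodes another H2A and had 1.37, 1.01 and 1.56 CPM in wild-type cells after 5-FU, against 5.5, 6.52, 8.44, 3.44 and 3.4 CPM after PBS. Its lowest PBS library was still above its highest 5-FU library, and the log2 fold change was -2.05 ± 0.43 (SE; adjusted p = 0.0068, edgeR). Hist1h2ac shares 7.93% of its windows with other genes and overlaps small stretches of others, 4.35% on the same strand and 5.56% on the other.

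Hist1h2bg (chr13:23571396-23572013, plus strand), an H2B gene, had 1.34, 0.851 and 3.19 CPM in wild-type cells after 5-FU, against 9.14, 7.33, 7.89, 7.44 and 5.2 CPM after PBS. The groups did not overlap, and the log2 fold change was -2.05 ± 0.47 (SE; adjusted p = 0.011, edgeR). With 44.8% of its windows found in other genes, most often Hist1h2bc, its count is uncertain. Hist2h2aa2 (chr3:96239749-96240276, minus strand) showed the widest gap, with 0, 0 and 0.76 CPM in wild-type cells after 5-FU, against 15.3, 22.7, 73.8, 15.3 and 6.55 CPM after PBS. Its log2 fold change was -6.82 ± 1.52 (SE; adjusted p = 0.0118, edgeR). Every window of this gene occurs elsewhere, and its exons lie wholly within exons of Gm20632 and Gm47311 on the other strand. Summed with its near-identical copy Hist2h2aa1, it came to 3.73, 2.95 and 5.09 CPM in wild-type cells after 5-FU, against 23.6, 35.0, 115, 25.4 and 10.8 CPM after PBS. The pair together was thus also lower in each 5-FU library than in any PBS library.

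The other 4 lower genes, named after their values were seen, were scarce. Hist4h4 (log2 fold change -2.89, adjusted p = 0.0192) had 0.152, 0.239 and 0.19 CPM in wild-type cells after 5-FU, against 0.8, 0.376, 3.63, 1.65 and 0.98 CPM after PBS. Hist1h3e (-2.21, adjusted p = 0.0217) had 0.668, 0.745 and 0.912 CPM after 5-FU, against 3.75, 4.26, 6.71, 1.23 and 2.14 CPM after PBS. Both were lower in every 5-FU library than in any PBS library, by a narrow margin for Hist4h4. Hist2h4 (-3.03, adjusted p = 0.0481) and Hist1h3f (-2.34, adjusted p = 0.0498) passed the edgeR threshold closely. Hist2h4 stood at 0.0266 to 0.273 CPM after 5-FU and at 0.551 to 2.63 CPM after PBS, and Hist1h3f at 0.266 to 0.516 CPM after 5-FU and at 0.704 to 5.44 CPM after PBS. Groups did not overlap for 13 of the 59 genes, all lower after 5-FU, beside 15.8% of all genes tested and 22.8% of genes of like length.

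**Figure D3:**
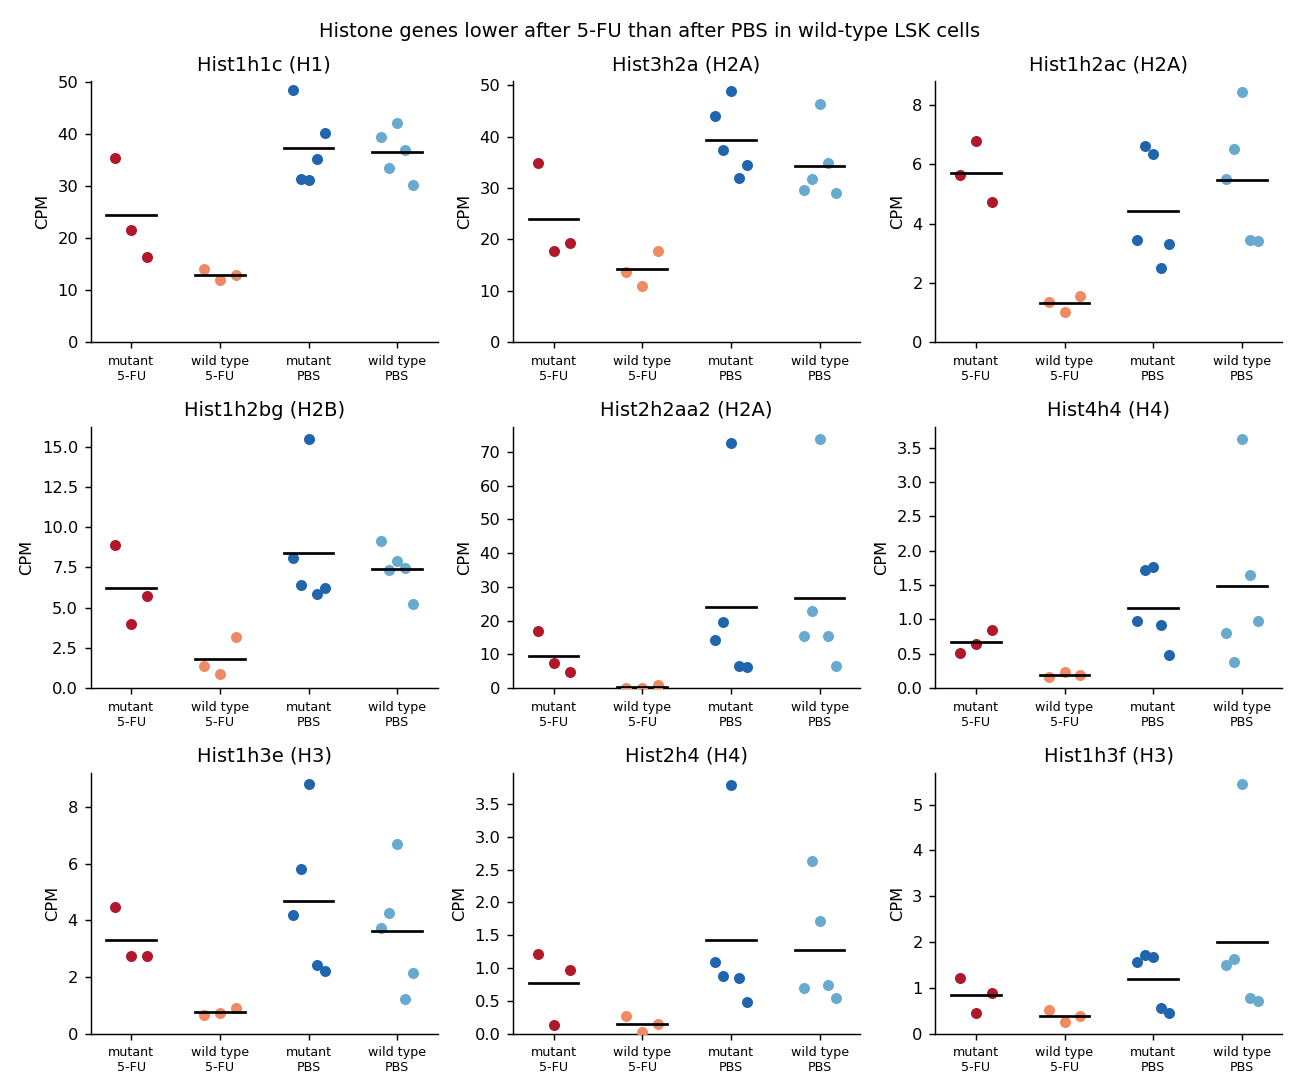
CPM of the 9 histone genes that were lower after 5-FU than after PBS in wild-type LSK cells, in every library, with group means as lines and axes from 0. For each gene the 3 wild-type 5-FU points lie below the 5 wild-type PBS points, for example 12 to 14 against 30.2 to 42.2 CPM for Hist1h1c, an order that TPM keeps for Hist2h2aa2 and for none of the other 8.

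The most abundant members of H2A, H2B, H3 and H4 gave smaller, uncalled estimates with wide spread among the PBS libraries. Hist1h2ap had 522, 496 and 728 CPM in wild-type cells after 5-FU, against 697, 751, 2290, 645 and 561 CPM after PBS. Its log2 fold change was -0.76 ± 0.46 (SE; adjusted p = 0.226, edgeR). PBS library 3 lay far above the other 4, and the groups overlapped. Hist1h2bc, the neighbour of Hist1h2ac, had 30.6, 23.3 and 28.2 CPM after 5-FU, against 27.3, 25.6, 63.6, 30.2 and 26.3 CPM after PBS (log2 fold change -0.34 ± 0.28, adjusted p = 0.383). Without that high PBS library its log2 fold change was 0.00. Hist1h3i (-0.61 ± 0.56, adjusted p = 0.435) had 1.0, 0.798 and 1.48 CPM after 5-FU, against 1.35, 1.57, 3.9, 1.16 and 0.52 CPM after PBS. Hist1h4d (-0.87 ± 0.48, adjusted p = 0.193) had 19.6, 18.7 and 25.1 CPM after 5-FU, against 23.8, 39.4, 88.1, 20.9 and 21.6 CPM after PBS. In both, 5-FU and PBS values were interleaved. Hist1h2aj and Hist1h2ao had no count in wild-type cells after 5-FU. After PBS, Hist1h2aj was also at 0 in 3 of 5 libraries and Hist1h2ao in 2 of 5, and 91.7% and 92.6% of their windows are shared with other genes, so their counts are uncertain and no fold is given.

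Over the 59 tested genes the estimate was below 0 for 52, and the median log2 fold change was -1.25, beside -0.11 over all genes tested. By type, 1 of 5 H1, 3 of 17 H2A, 1 of 15 H2B, 2 of 12 H3 and 2 of 10 H4 genes passed the test, with medians of -0.91, -1.28, -0.78, -1.31 and -1.61. Both clusters of chromosome 13 leaned the same way, with a median of -0.85 and no call among 21 tested genes of the first cluster and a median of -1.30 and 5 calls among 26 of the second. These medians have to be read beside transcript length, since short genes of every kind were lower after 5-FU in wild type.

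Tested histone genes are short, with a median effective length of 434 bases against 2064 for all genes tested. When other genes were placed in 25 bins of effective length, without members and immunoglobulin genes, the bin of up to 446 bases had a median log2 fold change of -1.27, and 30 histone genes fall in it. In the next bin, up to 645 bases and with 10 histone genes, the median was -1.06. Set against the median of its own bin, the median histone gene differed by -0.32, with 34 genes below and 25 above. Most of the shift of the family was therefore shared by other genes of the same length.

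Most of the lower genes were not among the shortest, with the exceptions of Hist2h2aa2 and Hist1h2bg in the 2 shortest bins. Of the 9, 7 belong to the 19 whose annotated transcript runs on past the stem-loop, 1 (Hist2h2aa2) to the 22 that end at it and 1 (Hist2h4) to the 28 without one found. These classes were set after the values were seen, and the longer models also hold more counts per gene (median of mean levels 2.92 CPM, against 1.69 and 1.49 CPM) and fewer shared windows (median 17.1%, against 52.3 and 55.2%). Their medians were alike, at -1.26, -0.97 and -1.29. The median of the other genes in the length bin of Hist1h1c was -0.23, and 14.0% of those genes had a fold change below that of Hist1h1c. For Hist1h2ac, Hist3h2a and Hist4h4 the medians of their bins were 0.12, 0.13 and 0.16, so these 3 fell where genes of their length on balance did not. The 10th percentiles of those bins were -1.71, -1.76 and -1.62. Hist1h2ac and Hist4h4 lay below theirs, and Hist3h2a lay within the range of its bin. Hist2h2aa2 lies in the shortest bin (median -1.27), in which 2.62% of the genes had a fold change below its own. That rank depends on how reads were split, since all windows of Hist2h2aa2 occur elsewhere. Its sum with Hist2h2aa1 (means of 3.93 CPM after 5-FU and 41.9 CPM after PBS) was not ranked.

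**Figure D4:**
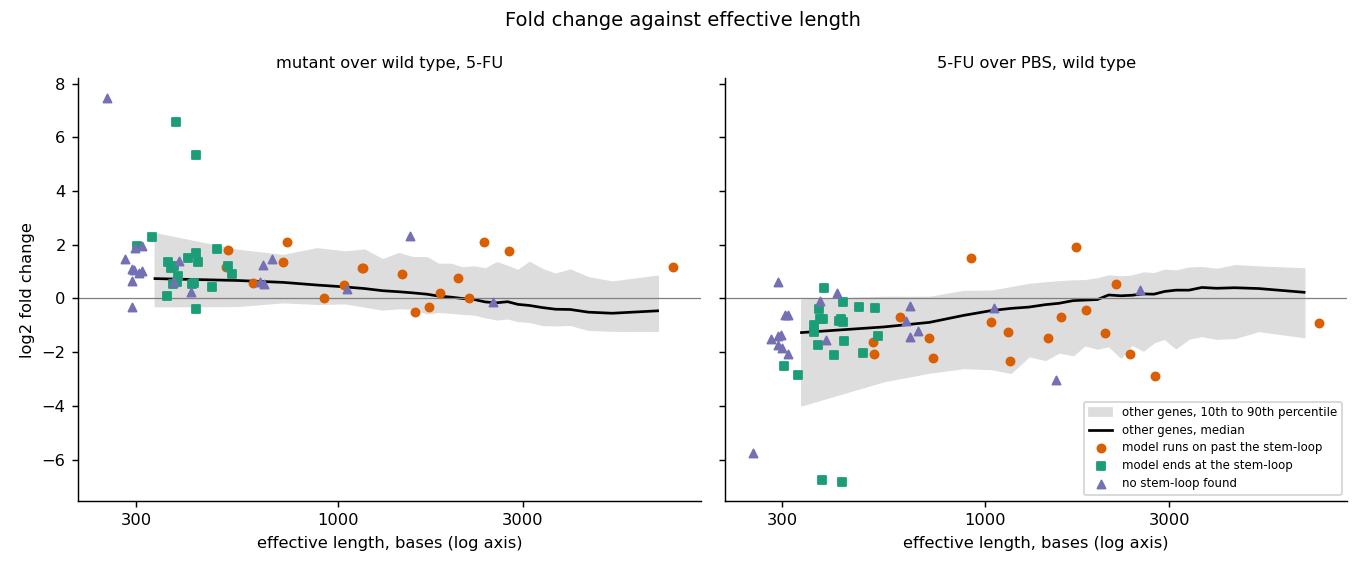
Log2 fold change against effective length in bases (log axis) for mutant over wild type after 5-FU and for 5-FU over PBS in wild type, with other genes as a median line and a band of the 10th to 90th percentile and the 59 histone genes as points by where their annotated transcript ends. In wild type the median of other genes is -1.27 in the shortest bin, and most short histone genes lie inside the band.

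Genes of DNA replication and mitosis moved the other way in the same wild-type libraries. Of 38 genes for S phase and DNA replication, 8 rose after 5-FU and none fell (median log2 fold change 0.64), among them the polymerase subunit genes Pole (89.0 CPM after 5-FU and 36.3 CPM after PBS; 1.29 ± 0.28, adjusted p = 0.00868) and Pola1 (1.22, adjusted p = 0.0197) and Rrm2 of ribonucleotide reductase (0.98, adjusted p = 0.0299). Of 30 genes for G2 and mitosis, 17 rose, including the cyclin gene Ccnb2 (185 CPM after 5-FU and 91.4 CPM after PBS; 1.02 ± 0.20, adjusted p = 0.00522) and Anln, which acts in cytokinesis (1.52, adjusted p = 0.00866). Genes with long transcripts were on the higher side in this comparison, with a median of 0.41 in the length bin around 3645 bases, and these lists were not matched on length. Of 27 genes that transcribe or process histone mRNA, 4 rose: Npat, the activator of histone gene transcription (1.05, adjusted p = 0.0356), its partner Casp8ap2 (0.84, adjusted p = 0.03), and the 3′-end and cap factors Cpsf2 (0.99, adjusted p = 0.0307) and Srrt (0.78, adjusted p = 0.0331). This list shares Ccne1 and Ccne2 with the S phase list. Among 21 histone chaperone genes Ubn1 (0.55, adjusted p = 0.0399) and Supt16 (0.81, adjusted p = 0.0444) rose. None of 11 replacement histone genes, which act outside S phase, passed the edgeR test, while 4 had an unadjusted p under 0.05. H3f3a, which encodes H3.3, came closest (-0.89, adjusted p = 0.0564). Other tools were not counted for these lists.

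Markers of most other cell types fell in the same comparison, and those of megakaryocytes did not. Of 12 plasma cell markers 10 fell, and their summed level was 149 to 407 CPM in wild-type cells after 5-FU, against 3211 to 65540 CPM after PBS. Of 13 B cell markers 11 fell, with Pax5 and Blk at 0 after 5-FU, and of 14 T and NK cell markers 11 fell, with Cd3e, Cd3g, Cd8a, Cd2 and Gzma at 0. Monocyte markers (9 of 14 lower) summed to 167 to 327 CPM after 5-FU, against 1665 to 9599 CPM after PBS, and neutrophil markers (9 of 13 lower) to 249 to 3438 CPM, against 5543 to 26263 CPM. Of 12 erythroid markers 8 fell and 1 rose. Of 7 plasmacytoid dendritic cell markers 5 fell, and of 10 mast cell, basophil and eosinophil markers 4 fell and 1 rose. By contrast, of 9 megakaryocyte markers 3 rose and none fell. Their summed level was 542 to 630 CPM in wild-type cells after 5-FU, against 202 to 348 CPM after PBS. Since the immunoglobulin share of every wild-type 5-FU library was below that of any other library, it cannot be told apart from the group. With it as a covariate none of the 59 histone genes passed, and of all 16482 genes tested 17 passed as lower and 5 as higher. Within the 1 code prefix that holds both wild-type treatments (1 library after 5-FU and 2 after PBS), the log2 fold change of Hist1h1c was -1.37. Without wild-type 5-FU library 1, 2 or 3 the count of lower genes was 3, 1 and 5.

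After 5-FU, mutant cells held more Hist1h2ac than wild-type cells, and no other histone gene passed the test. Hist1h2ac had 5.63, 6.79 and 4.74 CPM in mutant cells, against 1.37, 1.01 and 1.56 CPM in wild-type cells. The groups lay far apart, with the mutant values inside the range of the PBS libraries. The log2 fold change was 2.12 ± 0.46 (SE; adjusted p = 0.0283, edgeR). That is 1 of 59 genes, beside 1.49% of all genes tested that were called higher (0.461% were called lower) and 1.85% of genes of like length. The latter set ends at 1873 bases and does not reach the effective length of Hist1h2ac, 2382 bases. In the length bin of Hist1h2ac the median of other genes was -0.13, and 95.1% of them had a lower fold change. Without wild-type libraries 1 or 2, or mutant libraries 1 or 2, after 5-FU, no histone gene passed, and without wild-type library 3 or mutant library 3 the count was 2. Over all genes, these fits called 12 to 182 higher and 5 to 69 lower, against 245 and 76 with all libraries. DESeq2 called 5.

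The wider family leaned the same way in CPM without passing the test. The groups did not overlap for 28 genes, all higher in the mutant, beside 21.5% of all genes tested and 34.7% of those of like length. The median log2 fold change was 1.11, beside 0.07 over all genes and 0.39 over genes of like length, and against the medians of their own length bins the histone genes differed by 0.47, with 41 above and 18 below. By type the medians were 0.91 for H1, 0.85 for H2A, 0.60 for H2B, 1.12 for H3 and 1.42 for H4. With total-count scaling the median of all genes was -0.19.

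Hist1h1c had 35.4, 21.6 and 16.4 CPM in mutant cells after 5-FU, against 14, 12 and 13 CPM in wild-type cells. The mutant libraries were all higher but spread widely, and the log2 fold change of 0.91 ± 0.26 (SE) did not pass (adjusted p = 0.0822, edgeR). Hist1h2ap had 632, 903 and 1138 CPM in mutant cells, against 522, 496 and 728 CPM in wild-type cells, with overlap (0.61 ± 0.50, adjusted p = 0.503). Hist1h2bc had 37.6, 35.1 and 33.2 CPM in the mutant, against 30.6, 23.3 and 28.2 CPM in wild type (0.37 ± 0.31, adjusted p = 0.515). All 3 mutant values of Hist1h2bc were the higher ones, by a small margin. Hist1h3i (1.03 ± 0.62, adjusted p = 0.37) had 2.32, 1.9 and 2.46 CPM in the mutant, against 1.0, 0.798 and 1.48 CPM in wild type. Hist1h4d (0.51 ± 0.52, adjusted p = 0.597) had 28.7, 25.1 and 36.8 CPM in the mutant, against 19.6, 18.7 and 25.1 CPM in wild type, where the lowest mutant and the highest wild-type library met. Hist1h2aj and Hist1h2ao, with most of their windows shared, were at 0 in all wild-type libraries after 5-FU, and in the mutant they were at 0.433, 0.951 and 1.25 CPM and at 0.472, 0.349 and 0.577 CPM.

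Cell cycle genes gave no call in the same comparison. None of 38 S phase genes, 30 mitosis genes, 27 histone mRNA processing genes, 21 chaperone genes and 11 replacement histone genes passed the edgeR test between mutant and wild type after 5-FU. At an unadjusted p under 0.05, 2 S phase genes and 6 mitosis genes were lower and none higher. Pole came closest, at 36.0 CPM in mutant and 89.0 CPM in wild-type cells (-1.31 ± 0.33, adjusted p = 0.0509). Npat had 22.2 CPM in mutant and 48.3 CPM in wild-type cells (-1.12, adjusted p = 0.121). By contrast 8 of 12 plasma cell markers were higher in the mutant, among them the transcription factor gene Irf4 (6.35, adjusted p = 0.0171), and their summed level was 19744, 10379 and 2376 CPM in the mutant, against 202, 149 and 407 CPM in wild type. Of the other lists, 4 of 13 B cell, 5 of 14 T and NK cell and 2 of 14 monocyte markers were higher. The mutant library with the most plasma cell RNA had the highest Hist1h1c and Hist1h2bg but the lowest Hist1h2ap, and the part of these cells in the histone values was not tested. With immunoglobulin share as a covariate, Hist1h2ac did not pass, and the count was 0 among histone genes and 0 among all genes tested. The mutant 5-FU libraries are all written with a leading zero in their sample codes and the wild-type ones are not, so that feature and genotype cannot be told apart here.

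In mutant cells 5-FU left no histone gene past the test, in either direction. Of all genes tested, 1.36% were called lower and 0.837% higher. At an unadjusted p under 0.05, edgeR had 2 histone genes higher and 2 lower, beside 955 higher and 1204 lower of all 16482 genes tested. DESeq2 and limma-trend called no histone gene after adjustment. The median log2 fold change was -0.28, beside -0.03 over all genes and -0.11 over genes of like length, and 0.06 against the genes' own length bins. For 1 gene the groups did not overlap, in the higher direction, beside 5.05% of all genes tested. Hist3h2a had 34.9, 17.7 and 19.2 CPM after 5-FU, against 43.9, 37.4, 48.9, 32.0 and 34.5 CPM after PBS (-0.72 ± 0.26, adjusted p = 0.206, edgeR). Only mutant library 1 reached into the PBS range. Hist1h1c, with 35.4, 21.6 and 16.4 CPM after 5-FU and 48.4, 31.4, 31.2, 35.2 and 40.2 CPM after PBS, had the same shape (-0.61 ± 0.23, adjusted p = 0.254). Without mutant 5-FU library 1, 2 histone genes passed the test, beside 110 higher and 210 lower of all 17088 genes tested.

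The most abundant genes of H2A, H2B, H3 and H4 also gave no call in the mutant. Hist1h2ap (632, 903 and 1138 CPM after 5-FU, against 841, 1415, 2062, 880 and 762 CPM after PBS) gave -0.42 ± 0.45 (adjusted p = 0.786, edgeR). The estimates were 0.07 ± 0.28 for Hist1h2bc (adjusted p = 0.95), -0.28 ± 0.55 for Hist1h3i (adjusted p = 0.894) and -0.41 ± 0.47 for Hist1h4d (adjusted p = 0.802). For all 4 the groups overlapped. Hist2h3c1, an H3 gene, had no count in any mutant PBS library and 0, 0.793 and 0.273 CPM after 5-FU (adjusted p = 0.249, edgeR). Its exons lie wholly within Gm20634 on the same strand and all of its windows are shared, so its count is uncertain and no fold is given. Among replacement histones, the linker histone gene H1f0 rose (222 CPM after 5-FU and 114 CPM after PBS; 0.96 ± 0.17, adjusted p = 0.00685) and H2afy, which encodes macroH2A, fell (920 CPM after 5-FU and 1974 CPM after PBS; -1.10 ± 0.23, adjusted p = 0.0155, edgeR). No S phase, mitosis, histone mRNA processing or chaperone gene passed in this comparison, with 3 S phase and 7 mitosis genes higher at an unadjusted p under 0.05. Neutrophil markers fell in 5 of 13 cases and summed to 190 to 433 CPM after 5-FU, against 5120 to 25561 CPM after PBS.

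**Figure D5:**
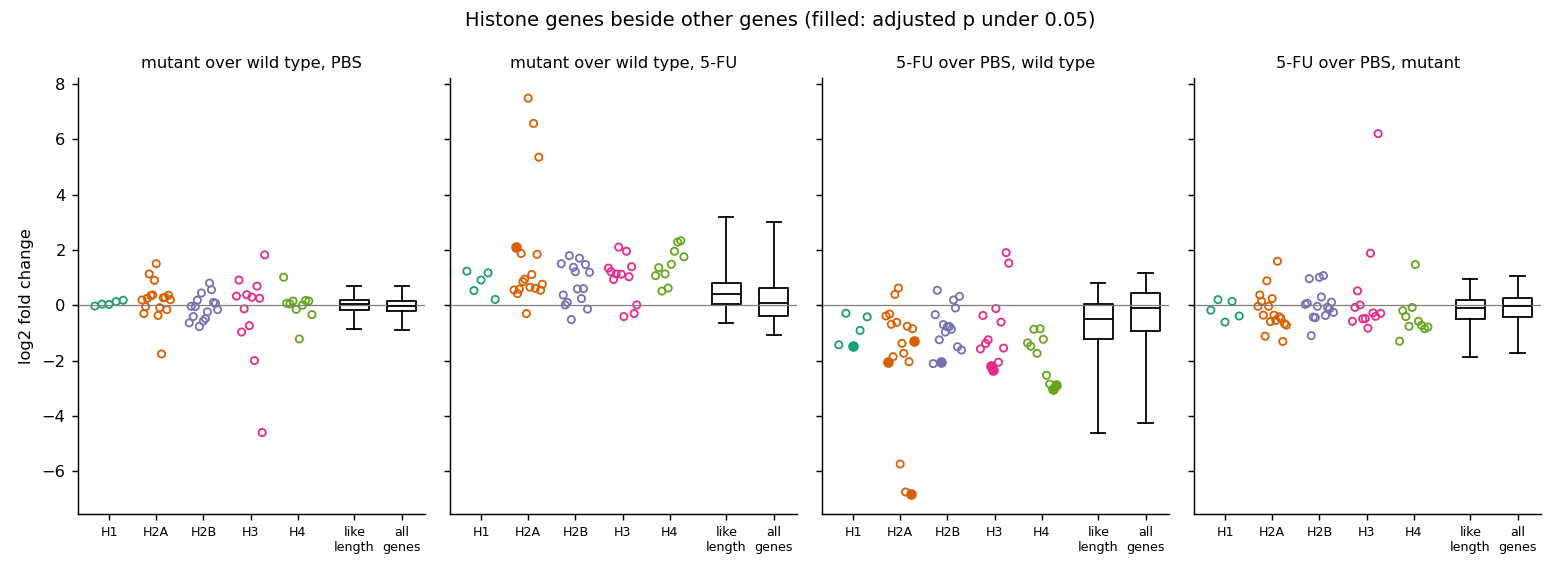
Log2 fold change of each tested histone gene by type in 4 comparisons (points, filled where the adjusted p is under 0.05), with boxes for genes of like effective length and for all genes (median, quartiles and 5th to 95th percentile). The only filled points are the 9 lower genes for 5-FU over PBS in wild type and Hist1h2ac for mutant over wild type after 5-FU. On the TPM scale the wild-type comparison gave 1 lower and 11 higher, beside 574 lower and 7041 higher of all 16482 genes tested.

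Under PBS the genotypes could not be separated in histone RNA. No histone gene passed the edgeR test and none had an unadjusted p under 0.05, and DESeq2 and limma-trend also called none, nor did a fit in which the replicate block paired libraries of the 2 genotypes. Of all 16482 genes tested, 0.0182% were called higher and none lower, and at an unadjusted p under 0.05 (edgeR) 264 were higher and 277 lower. No histone gene was free of overlap between the groups, beside 0.322% of all genes tested that were so and higher and 0.303% that were so and lower. The median log2 fold change was 0.07, beside -0.02 over all genes. The smallest p belonged to 2 H3 genes near the detection limit. Hist2h3c1 had no count in the mutant and 0.49 CPM in 1 of 5 wild-type libraries. Hist1h3h had 0.0424, 0, 0.264, 0.294 and 0 CPM in the mutant, against 0, 0.564, 0.544, 0.449 and 0.827 CPM in wild type (log2 fold change -2.0 ± 1.04, adjusted p = 1.0). For the most abundant gene of each of the 5 types, the means of the genotypes differed by less than the SD within either genotype. The log2 ratio of the group means of the summed CPM was 0.22, which came to -0.06 without mutant library 3 and to 0.74 without wild-type library 3.

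The response to 5-FU was also compared between the genotypes directly. No histone gene passed for this difference with edgeR, 8 had an unadjusted p under 0.05, all more positive in the mutant, and DESeq2 and limma-trend called 1 each. Of all genes tested, 0.558% were called in that direction and 0.0303% in the other at the adjusted threshold. At an unadjusted p under 0.05 (edgeR), 1166 of all 16482 genes were more positive in the mutant and 622 less. Of the 6860 genes of like length, 582 were more positive and 56 less. Hist1h2ac had the smallest p, with a difference of 2.42 ± 0.56 in log2 fold change (adjusted p = 0.0665), followed by Hist2h2aa2 with 5.51 ± 1.69 (adjusted p = 0.197). The median difference was 1.01 over histone genes, 0.07 over all genes, 0.35 over genes of like length and 0.29 against the genes' own length bins. That 9 genes passed in wild type and none in the mutant is therefore not a tested difference between the genotypes. Among other lists, 2 of 12 plasma cell markers passed for the same difference, Irf4 (6.85, adjusted p = 0.0272) and Pou2af1 (6.96, adjusted p = 0.0322), and none of the S phase, mitosis, histone mRNA processing, chaperone or replacement histone genes did.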

How the data were processed

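RNA of sorted LSK cells was sequenced in 16 libraries after purification with the RNeasy Micro kit and preparation with the NuGEN Ovation Ultralow system, per the labels' protocols. The submitters' processing notes name RSEM 1.3.1, FastQC 0.11.2 and the mm10/GRCm38 build. Aligner, annotation release, RNA priming and use of strand in counting are not stated there (not given in the sources used here). For each gene the authors deposited an RSEM expected count, TPM and FPKM values computed from it by RSEM (FPKM per length and depth), and an effective length, per the file headers. FPKM was not used in the results.

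Expected counts were rounded, filtered with filterByExpr (minimum count 10; 16482 genes) and scaled with TMM factors from 0.508 to 1.37. The edgeR 4.0.16 quasi-likelihood F test (robust; 1 mean per group; all 16 libraries) gave 5 comparisons, with Benjamini-Hochberg adjustment over all genes and a threshold of 0.05. R 4.3.3, DESeq2 1.42.0 and limma 3.58.1 (on log2(TPM + 1)) gave alternatives. CPM in the text uses the TMM library sizes. Summed levels have no test. Genes of like effective length are those from 299.0 to 1873 bases, the 10th to 90th percentile of the tested members. Their median is 1187 bases, against 434 for the tested members. Coordinates and transcripts are from GENCODE M21. The test was checked on simulated counts.

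Named genes were, per comparison, up to 5 called members with the smallest p in each direction, the 2 with the smallest p where none was called, and the most abundant member of each type. Members and lists were chosen with earlier results of these data known. Libraries of the same replicate number resembled each other between the 2 PBS groups (correlation of deviations for numbers 1 to 5: 0.165, 0.243, 0.494, 0.342 and 0.569). Mutant library 4 correlated best with a wild-type library of another number. In the other comparisons these correlations ran from -0.158 to 0.168. The pairing was read from these values, since the code prefixes of the 2 genotypes differ. Where a group had 0 counts, values are given without a fold.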

Additional observations from a re-analysis of the deposited data

Results flagged for a closer look

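Within groups of 5 PBS libraries, 33 sets of values were checked for a library far from the rest, a check that chance meets in about 1 in 20 groups. The sets are not independent, as the sums hold genes that were also checked singly, so the number met cannot be set against that rate. Of the 14 values that met it, 13 belong to the PBS libraries numbered 3. In wild-type library 3 these are the sum of all histone genes (3081 CPM), the sums of H2A (2660 CPM), H2B (124 CPM), H3 (37.1 CPM) and H4 (163 CPM), and the values of Hist1h2ap (2290 CPM), Hist1h2bc (63.6 CPM), Hist1h4d (88.1 CPM) and Hist2h2aa2 (73.8 CPM). In mutant library 3 they are the H2B sum (107 CPM), Hist1h2bg (15.5 CPM), Hist1h3i (5.28 CPM) and Hist2h2aa2 (72.8 CPM). The 14th is Hist2h3c1 in wild-type PBS library 5 (0.49 CPM, with 0 in the other 4). The H1 sum was not among them. These 2 libraries also had the smallest TMM factors, 0.508 in the mutant and 0.547 in wild type, and immunoglobulin shares of 50.2 and 44.2% of counts. The part of either in the histone values was not tested.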

How the results depend on the processing

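In wild type, the 9 genes lower after 5-FU became 25 with the replicate block and 16 with DESeq2. The count was 5 with total-count scaling and 5 with the leading zero of the sample code as a term. With immunoglobulin share as a covariate it was 0. With limma-trend on log2(TPM + 1) it was 12, 11 of them higher, and leaving out 1 library gave 1 to 13. Calls over all genes moved too, from 915 higher and 1535 lower to 3489 and 3829 with the replicate block and 1787 and 2810 with DESeq2. They came to 371 and 674 with total-count scaling, 225 and 787 with the code term, 5 and 17 with immunoglobulin share, and 7041 and 574 with limma-trend. Leaving out 1 library gave 146 to 1300 higher and 380 to 1933 lower. For mutant against wild type after 5-FU, the count of 1 became 7 with the replicate block, 6 with only the compared groups and 5 with DESeq2. It was 3 with total-count scaling, 0 with the code term and 0 with immunoglobulin share, and 0 to 2 without 1 library. Over all genes, 245 higher and 76 lower became 836 and 688 with the replicate block and 1064 and 1016 with only the compared groups. DESeq2 called 826 and 482, total-count scaling 255 and 12, the code term 34 and 8, and immunoglobulin share 0 and 0. Leaving out 1 library gave 12 to 182 higher and 5 to 69 lower. In the mutant, 0 became 0 to 2 without 1 library, while over all genes 138 higher and 224 lower became 53 to 135 and 103 to 270. For the difference between responses, 0 became 2 with the replicate block. It became 1 with DESeq2, with limma-trend, with total-count scaling and without both PBS libraries 3, and 0 to 3 without 1 library. Over all genes, 92 more positive in the mutant and 5 the other way became 313 and 70 with the replicate block and 491 and 90 with DESeq2. Limma-trend called 53 and 3, total-count scaling 167 and 3, and the fit without both PBS libraries 3 called 213 and 42. Leaving out 1 library gave 10 to 270 and 1 to 39. Replicate numbers go together only between the PBS groups, and there by their values, so block results do not rest on the design. The cause of each change was not tested.

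The summed level (log2 ratio of means in CPM: 0.64 for mutant against wild type after 5-FU, -0.82 for 5-FU against PBS in wild type, -0.40 in the mutant) became -0.15, 0.84 and 0.24 in TPM. Without immunoglobulin genes in TPM the first 2 were 0.37 and -0.17, and total-count scaling gave -0.07 in wild type. Leaving out 1 library gave 0.46 to 0.81, -0.98 to -0.30 and -0.58 to -0.11.

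Of the values of named genes, 49 changed sign. For 5-FU against PBS in wild type, limma-trend gave 0.01 for Hist1h1c, 0.20 for Hist3h2a, 0.94 for Hist1h2ap, 1.21 for Hist1h2bc, 0.92 for Hist1h3i and 0.83 for Hist1h4d, beside 1.01 for the median gene; upper-quartile scaling put the median gene at -0.24. Immunoglobulin share gave 0.00 for Hist1h2ac, 0.14 for Hist1h2bg, 1.15 for Hist1h2ap, 0.49 for Hist1h2bc, 2.06 for Hist1h3i and 1.55 for Hist1h4d. Removing the length trend gave 0.53 for Hist1h2ap, 0.14 for Hist1h2bc and 0.79 for Hist1h3i, and the code prefix gave 0.27 for Hist1h2ap, 0.82 for Hist1h3i and 0.24 for Hist1h4d. The code term gave 0.18 for Hist1h3i and 0.02 for Hist1h4d, total-count scaling (all genes shifted by 0.44) 0.33 for Hist1h2bc and 0.17 for Hist1h3i, and leaving out 1 wild-type PBS library gave -0.43 to 0.00 for Hist1h2bc, the last without library 3. For mutant against wild type after 5-FU, limma-trend gave -0.06 for Hist1h1c, -0.31 for Hist1h2ap, -0.52 for Hist1h2bc and -0.39 for Hist1h4d. Immunoglobulin share gave -0.95 for Hist1h2ap, -0.35 for Hist1h2bc, -1.18 for Hist1h3i and -1.50 for Hist1h4d, the code term -0.31 for Hist1h2ap, -0.07 for Hist1h3i and -0.78 for Hist1h4d, and the length trend -0.11 for Hist1h2ap and -0.02 for Hist1h2bc. For 5-FU against PBS in the mutant, limma-trend gave 0.16 for Hist1h2ap, 0.30 for Hist1h3i and 0.23 for Hist1h4d, and total-count scaling (all genes shifted by 0.22) 0.02, 0.14 and 0.06. Hist1h3i also came to 0.11 without the length trend and to 0.08 without mutant PBS library 3, with or without its wild-type counterpart. Hist1h2bc came to -0.02 with the code term and to -0.01 without mutant PBS library 2. Under PBS, Hist2h3c1 came to between -4.92 and 0.00 without 1 library, the last without wild-type library 5, and Hist2h2aa2 to -0.44 for the difference between responses with immunoglobulin share. Of the other values of named genes, 466 kept direction and side of the threshold, 27 lost the call and 17 gained one.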
